A study of Mus musculus with 20 samples.

Results

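Integrin subunits were followed across mouse breast cancer cells that differ in mesenchymal state, in the level of 2 chromatin regulators and in exposure to a histone deacetylase inhibitor. The set comprised 10 genes, Itga2, Itga3, Itga5, Itga6, Itga8, Itgav, Itgb1, Itgb3, Itgb4 and Itgb6, chosen by gene symbol and matched through NCBI Gene numbers. They were 10 of the 19311 genes listed for 8 libraries given in reads per kilobase and library size (RPKM), and 10 of the 24454 genes listed for 12 libraries given in counts scaled to library size (CPM, which sum to 1000000). All cells were labelled as breast cancer cells of the MMTV-PyMT strain, in which a viral promoter active in mammary epithelium drives the polyoma middle T oncogene. The RPKM libraries covered M1, M2 and M3, which are stable mesenchymal clones and each a single clone, and Py2T LT, which are Py2T cells cultured for more than 10 days in 2 ng/ml TGF-beta 1. The CPM libraries covered only clone M3, carrying an shRNA labelled shTet2, shMbd3 or shControl, each with 2 µM CI994 for 72 hours or untreated. CI994 inhibits class I histone deacetylases. Each of the 10 groups had 2 libraries of total RNA, from independent experiments according to the protocol in the labels. Whether TGF-beta was present in cultures of the clones is not stated in the labels, nor is a solvent control for CI994.

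Integrins are receptors of one alpha and one beta chain that span the plasma membrane and tie the extracellular matrix to the cytoskeleton. The alpha chain largely sets the ligand. In these genes, alpha3, alpha6 and the alpha6 beta4 pair bind laminins, alpha2 with beta1 binds collagens, and alpha5, alpha8 and alphav recognise the RGD motif of fibronectin and related proteins. Beta1 pairs with all of these alpha chains, beta3 and beta6 pair with alphav, and alphav beta6 also activates latent TGF-beta. In the mammary gland the laminin receptors anchor epithelial cells to the basement membrane, and beta4 builds hemidesmosomes. Tet2 oxidises methylated cytosine. The NuRD complex, to which Mbd3 belongs, remodels nucleosomes and carries class I histone deacetylases.

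Itga8 was lower and Itgb6 higher in cells carrying either shRNA than in shControl cells, and their promoters are shown because Tet2 acts on methylated cytosine, which in mammals lies mostly at CpG sites. Itga8 lies at chr2:12106632-12301985, Itgb6 at chr2:60598292-60722603 and Itgb3 at chr11:104608000-104670476 on GRCm38, the assembly that mm10 names. The RefSeq table on GRCm38.p6 held promoter windows for 7 of the 10 genes, and Itga6, Itgb3 and Itgb4 had none. Each window runs from 250 bases before the transcription start to 50 bases after it, and capitals mark CpG. The Itga8 window is at chr2:12301895-12302194 on the minus strand, and the first of 2 Itgb6 windows is at chr2:60722554-60722853 on the minus strand.
Itga8: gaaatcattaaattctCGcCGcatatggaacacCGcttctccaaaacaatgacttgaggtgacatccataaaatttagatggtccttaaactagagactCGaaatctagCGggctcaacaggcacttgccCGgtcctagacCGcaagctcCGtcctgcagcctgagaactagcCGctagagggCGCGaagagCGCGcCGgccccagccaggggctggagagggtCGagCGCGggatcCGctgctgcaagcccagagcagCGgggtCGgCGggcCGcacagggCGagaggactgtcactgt
Itgb6: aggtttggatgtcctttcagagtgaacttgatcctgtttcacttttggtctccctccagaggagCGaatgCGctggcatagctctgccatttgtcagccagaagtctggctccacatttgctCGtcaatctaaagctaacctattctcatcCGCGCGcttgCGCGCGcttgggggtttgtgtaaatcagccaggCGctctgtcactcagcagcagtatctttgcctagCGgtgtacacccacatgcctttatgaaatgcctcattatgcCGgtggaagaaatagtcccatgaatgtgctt
The Itga8 window held 23 CpG, more than 78.5% of 32851 promoter windows, whose median was 7. The first Itgb6 window held 12 CpG, more than 60.4% of windows, and its second, at chr2:60673644-60673943, held 3. Other members were richer: Itgb1 held 27 CpG (84.5%), and Itgav and the first Itga3 window held 24 each (80%). With all libraries used, Itgb1, Itgav and Itga3 did not pass after Tet2 knockdown. This is not firm, since Itga3 and Itgb1 passed in 4 and 3 of 23 alternative settings. Their log2 changes ran from 0.30 to 1.89 and from -0.09 to 0.53 in these settings. A link between CpG number and response was not tested. The windows were searched on both strands for the letters CACCTG (an E-box), TGANTCA (an AP-1 motif) and GGGCGG (a GC box), which occurred in 20.2%, 7.81% and 35.7% of all windows, each motif counted on its own. None of these letters stood in the Itga8 window or the first Itgb6 window, and the second Itgb6 window held one E-box. DNA methylation was not measured in the libraries used here.

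The 12 CPM libraries rested on 16086082 to 24977595 counted reads, and the reads behind the RPKM values are not known. One library stood apart, the library labelled shControl replicate 1. Relative to its partner it lost signal from GC-rich transcripts: the difference between the 2 libraries, taken in the highest decile of genes by GC content minus the lowest, was -1.77 on the log2 scale, against -0.38 to 0.01 in the other 5 groups. Mbd3 was at 22.1 and 27.7 CPM in shMbd3 cells, against 5.4 CPM in that library and 66.5 CPM in shControl replicate 2, so this library went against its label for Mbd3. With CI994, Mbd3 was at 16.6 and 21.9 CPM in shMbd3 cells, against 53.6 and 67.7 CPM in shControl cells. Tet2 was at 8.41 and 7.97 CPM in shTet2 cells, against 15.1 and 13.8 CPM in shControl cells. With CI994, Tet2 was at 6.3 and 7.42 CPM in shTet2 cells, against 8.13 and 11.4 CPM in shControl cells.

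Among the integrins, Itga3, Itga5 and Itgb4 have the GC-richest transcripts, at 57.9%, 57.3% and 60% GC. These 3 genes were lower in the library labelled shControl replicate 1 than in replicate 2, by log2 differences of -1.60, -1.12 and -1.91. The other 7 genes, at 43.5% to 52.1% GC, differed by -0.30 to 0.72. In the remaining 5 groups no integrin differed by more than 0.65 between the 2 libraries. Results for the 10 genes against untreated shControl cells are given with and without replicate 1.

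**Figure D1:**
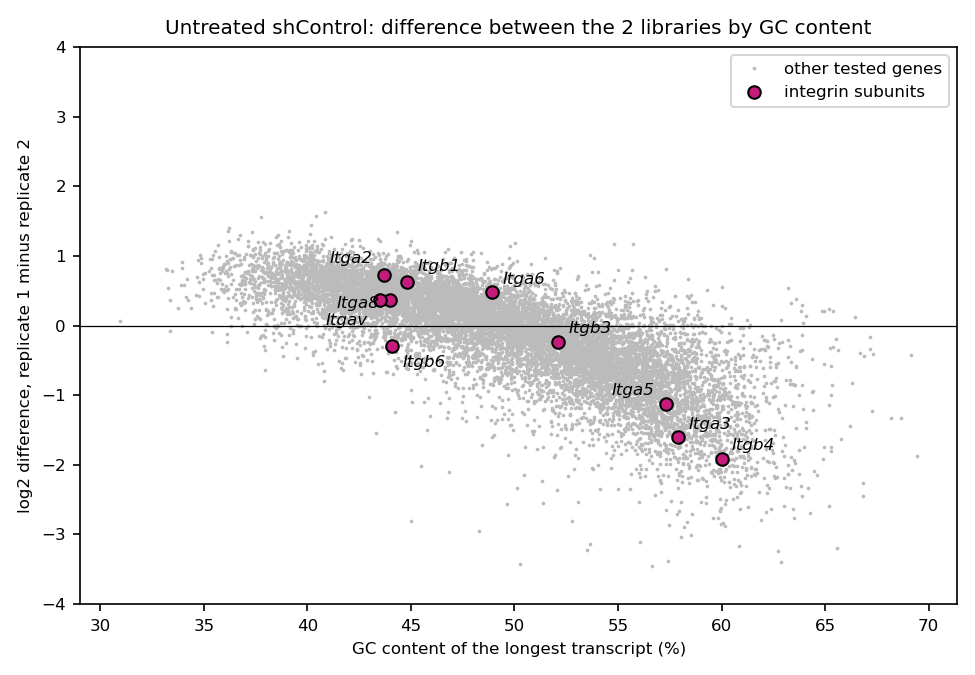
Log2 difference between the 2 untreated shControl libraries (replicate 1 minus replicate 2, y axis) against the GC content of each gene's longest transcript in percent (x axis), with 1 grey point per tested gene and the 10 integrin subunits in pink. Itga5, Itga3 and Itgb4 lie far below 0, at -1.12, -1.60 and -1.91, while the other 7 subunits lie between -0.30 and 0.72.

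The cells carried the epithelial keratin Krt8 throughout, at 357 to 492 RPKM and 324 to 1541 CPM. The summed level of 5 mammary epithelial markers was 1600 to 3014 RPKM and 1348 to 6438 CPM. Mesenchymal markers were mixed, since Cdh2 was at 36.4 to 54.9 RPKM in the clones and at 1.74 and 1.94 RPKM in Py2T LT, whereas Vim was at 358 to 589 RPKM in the clones and at 1397 and 1379 RPKM in Py2T LT. Of 5 haematopoietic markers, Adgre1 was at 0 in all 20 libraries, Ptprc was at no more than 0.378 CPM and Cd3e was also low, whereas Itgb2 reached 18.9 CPM and Cd68 16.6 CPM. Cd68 was at 6.69 to 16.6 CPM in cells with CI994, against 0.918 to 3.12 CPM in untreated cells. Of 4 endothelial markers, Kdr was at no more than 0.0472 CPM, and Cdh5 was at no more than 0.0157 RPKM in the clones, against 1.4 and 0.911 RPKM in Py2T LT. The summed level of the 4 was 0.799 and 1.12 CPM in shMbd3 cells with CI994, so markers other than Kdr carried it there. In the remaining CPM groups the sum was 0.24 to 0.669 CPM. Of 4 basal and myoepithelial markers, Krt5 was at no more than 0.0996 CPM, whereas Krt14 reached 108 CPM. The part of such cells in the integrin results was not tested. RNA from whole cultures cannot separate fewer expressing cells from less RNA per cell.

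Between the clones and Py2T LT, laminin-binding Itga3, Itga6 and Itgb4 were higher in every clone, and collagen-binding alpha2, fibronectin-binding alpha5, beta1 and beta3 were lower. Itga7, a laminin-binding alpha chain outside the set, did not follow them and is described with the other subunits. Of the 9 genes tested, 4 rose and 4 fell in the mean of the 3 clones, and Itgav did not pass the test. All tests on these libraries used limma on log2(RPKM + 0.5) with Benjamini-Hochberg adjustment over 11717 genes and a threshold of 0.05. In this contrast 65.0% of all genes passed, 32.6% higher and 32.4% lower, so the number of integrins called is not set apart from the background. A gene was tested if 2 libraries reached 1 RPKM, which Itgb3 did only in Py2T LT and Itga8 only in M2 and M3, so these genes had to differ and their counts and values describe that difference. The same 4 genes rose and the same 4 fell in each clone on its own, where 60.9% of genes passed in M1 (30.4% higher, 30.5% lower), 57.5% in M2 (28.7% higher, 28.8% lower) and 59.5% in M3 (30.3% higher, 29.1% lower). Itgb6, the beta chain of the latent TGF-beta receptor, was below the level tested, at no more than 0.0726 RPKM in any library.

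Itgb4, the hemidesmosome chain, showed the largest rise of the set. It was at 54.7 and 54.2 RPKM in M1, 88.2 and 82.3 in M2, 48.4 and 56.2 in M3, against 3.58 and 2.54 RPKM in Py2T LT. All 6 clone libraries lay far above both Py2T LT libraries. The log2 change for the clones was 4.14 ± 0.12 (SE, adjusted p = 1.75e-08). Itga6, the alpha chain that pairs with beta4, was at 75.3 and 84.7 RPKM in M1, 74.5 and 67.5 in M2, 92.7 and 67 in M3, against 28.7 and 27.3 RPKM in Py2T LT. Its groups did not overlap either, and its log2 change was 1.42 ± 0.13 (adjusted p = 1.86e-05).

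Itga3, the alpha chain of a laminin receptor with beta1, averaged 404 ± 45.9 RPKM in the clones (SD, n = 6 libraries of 3 clones) and 180 ± 15.7 RPKM in Py2T LT (SD, n = 2). Its log2 change was 1.14 ± 0.08 (limma, adjusted p = 4.31e-06), with no overlap between the groups. Itga8, an RGD-binding alpha chain best known from kidney development, was lower in abundance than the laminin chains but rose too. It was at 0.482 and 0.593 RPKM in M1, 1.5 and 1.09 in M2, 3.92 and 2.9 in M3, against 0.141 and 0.155 RPKM in Py2T LT. The clones formed steps that did not overlap each other, with M3 highest. The log2 change was 0.66 ± 0.18 in M1 (adjusted p = 0.0116, lost in 3 of 16 alternative settings), 1.46 ± 0.18 in M2 (adjusted p = 0.000171) and 2.59 ± 0.18 in M3 (adjusted p = 4.92e-06). Because 0.5 was added to every value, these numbers understate the change of a gene this low.

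Itgb3, which pairs with alphav in the vitronectin receptor, was abundant in Py2T LT only. It was at 0.46 and 0.663 RPKM in M1, 0.455 and 0.335 in M2, 0.209 and 0.269 in M3, against 30.7 and 30.2 RPKM in Py2T LT. No clone library was above 0.663 RPKM, and its log2 change was -5.14 ± 0.12 (limma, adjusted p = 7.87e-09). Without the filter on low values, which it passed through Py2T LT alone, the value was -5.15 (adjusted p = 2.32e-05). Itga2, the collagen receptor chain, was at 1.35 and 3.09 RPKM in M1, 1.41 and 1.55 in M2, 4.23 and 2.62 in M3, against 41.8 and 41.9 RPKM in Py2T LT. No clone library came close to Py2T LT, and the log2 change was -3.99 ± 0.26 (adjusted p = 7.48e-06).

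Itga5, the classical fibronectin receptor chain, averaged 55.4 ± 16 RPKM in the clones (SD, n = 6) and 246 ± 5.55 RPKM in Py2T LT (SD, n = 2). Its log2 change was -2.21 ± 0.08 (limma, adjusted p = 8.36e-08). Itgb1, the shared partner of most alpha chains, averaged 305 ± 77.2 RPKM in the clones and 643 ± 32.4 RPKM in Py2T LT, with a log2 change of -1.13 ± 0.09 (adjusted p = 1.03e-05). The groups did not overlap for either gene. Itgav averaged 43.1 ± 5.1 RPKM in the clones and 46.1 ± 0.212 RPKM in Py2T LT, and its log2 change of -0.12 ± 0.11 did not pass the test (adjusted p = 0.345). With the clones pooled, this common alpha partner of beta3 and beta6 overlapped with Py2T LT, while beta3 did not. By clone, Itgav was at 35.4 and 42.8 RPKM in M1, 46.9 and 47.9 in M2, and 46.9 and 38.8 in M3. Py2T LT had 45.9 and 46.2 RPKM, so M1 lay below it, M2 above it and M3 on both sides. Itgav did not pass in any clone (limma, adjusted p = 0.0906 in M1, 0.873 in M2 and 0.504 in M3).

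**Figure D2:**
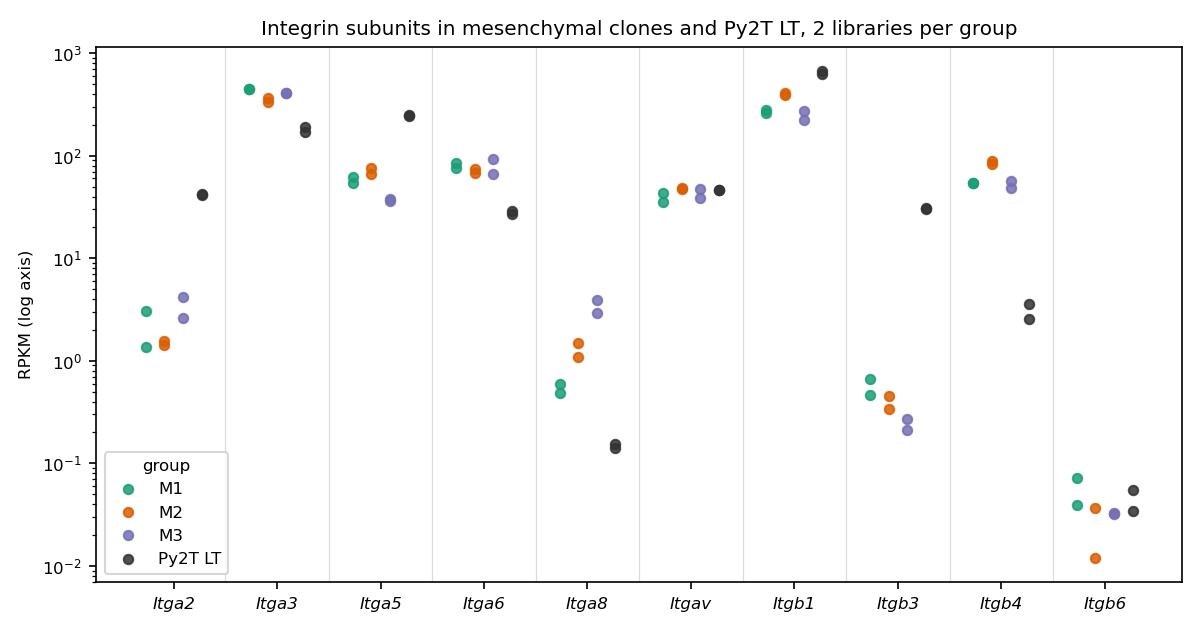
RPKM of the 10 integrin subunits (y axis, log scale) in clones M1, M2, M3 and in Py2T LT, with 1 point per library and 2 libraries per group. Itgb3, Itga2, Itga5 and Itgb1 are lower in all clone libraries than in Py2T LT, Itgb4, Itga6, Itga3 and Itga8 are higher, and Itgav overlaps.

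Per length of transcript, the order of the subunits also differed. In M1 and M3, Itga3 was the most abundant of the 10, at 452 ± 0.0159 RPKM in M1 and 407 ± 2.7 RPKM in M3 (SD, n = 2 each), with Itgb1 next. In M2, Itgb1 came first at 402 ± 15.7 RPKM and Itga3 second at 352 ± 22.3 RPKM. In Py2T LT, Itgb1 led at 643 ± 32.4 RPKM, followed by Itga5 and then Itga3, and Itgb4 was only eighth. Neighbours in the order whose libraries overlapped were Itga5 and Itgb4, and Itgb3 and Itga8, in M1. In M2 they were Itga5 and Itga6, and Itga2 and Itga8, and in M3 Itga2 and Itga8. In Py2T LT no neighbouring libraries overlapped.

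The 3 clones differed from each other in 5 of the 9 tested genes. Between M1 and M2, 1 integrin was higher in M1 and 3 were lower, where 22.9% of all genes passed (11.8% higher, 11.1% lower). Between M1 and M3, 1 was higher in M1 and 1 lower (4.92% of all genes, 1.72% higher and 3.20% lower), and between M2 and M3, 3 were higher in M2 and 1 lower (20.2%, 9.61% higher and 10.6% lower). Itga8 differed in all 3 pairs, by log2 changes of -0.80 ± 0.18 for M1 over M2 (adjusted p = 0.0152, lost in 4 of 17 alternative settings), -1.93 ± 0.18 for M1 over M3 (adjusted p = 0.000928) and -1.13 ± 0.18 for M2 over M3 (adjusted p = 0.00351).

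M2 held more beta1 and beta4 than the other clones. Itgb1 averaged 402 ± 15.7 RPKM in M2, against 267 ± 11.5 in M1 and 247 ± 33.7 in M3 (SD, n = 2 each), with log2 changes of -0.62 ± 0.11 for M1 over M2 (adjusted p = 0.00636, lost in 1 of 17 alternative settings) and 0.69 ± 0.11 for M2 over M3 (adjusted p = 0.00384). Itgb4 averaged 85.3 ± 4.14 RPKM in M2, 54.4 ± 0.32 in M1 and 52.3 ± 5.51 in M3, with log2 changes of -0.67 ± 0.14 for M1 over M2 (adjusted p = 0.0133) and 0.69 ± 0.14 for M2 over M3 (adjusted p = 0.0125), calls lost in 3 and 4 of 17 alternative settings. Itga5 was lowest in M3, at 37 ± 1.46 RPKM, and the log2 change was 0.60 ± 0.10 for M1 over M3 (adjusted p = 0.0159, lost in 4 of 17 alternative settings) and 0.92 ± 0.10 for M2 over M3 (adjusted p = 0.00058). Itga3 was slightly higher in M1 than in M2, by 0.33 ± 0.10 (adjusted p = 0.0433), a call lost in 12 of 17 alternative settings.

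Ligands and adaptors of these receptors also differed between the clones and Py2T LT, a contrast in which 65.0% of all genes passed. Of 8 tested RGD ligands, 4 rose and 4 fell, with a median log2 change of -0.25 against 0.00 over all genes. Nephronectin (Npnt), the main ligand of alpha8 beta1, averaged 7.05 RPKM in the clones and 0.256 in Py2T LT (log2 change 2.66 ± 0.14, limma, adjusted p = 7.75e-07). It passed the filter of 1 RPKM through the clones alone, so it had to be higher there once tested. Its clone averages were 3.01 RPKM for M1, 1.36 for M2 and 16.8 for M3. Nephronectin was thus higher in M1 than in M2 (log2 change 0.87 ± 0.17, adjusted p = 0.01), where Itga8 was lower in M1 than in M2. Osteopontin (Spp1) averaged 2914 RPKM in the clones and 883 in Py2T LT, and tenascin-C (Tnc) averaged 64 RPKM in the clones and 758 in Py2T LT.

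Of 12 tested laminin and collagen chains, 2 rose and 6 fell, with a median log2 change of -0.32. The laminin alpha5 chain (Lama5), a ligand of the alpha3 and alpha6 receptors, averaged 64.5 RPKM in the clones and 3.36 in Py2T LT (log2 change 4.06 ± 0.19, limma, adjusted p = 6.62e-07). The basement membrane collagen Col4a1 averaged 0.00866 RPKM in the clones and 61.8 in Py2T LT, and Itga2, which binds collagens, fell in the same comparison. Of 26 tested adaptors and kinases at adhesion sites, 3 rose and 21 fell, with a median log2 change of -0.54. The leading ones were beta-parvin (Parvb), at 0.0325 RPKM in the clones and 58.3 in Py2T LT, and Apbb1ip, which recruits talin to integrins, at 0.414 RPKM in the clones and 19.6 in Py2T LT. Col4a1, Parvb and Apbb1ip averaged under 1 RPKM in the clones. They passed the filter through Py2T LT, so they had to be lower in the clones once tested.

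The 3 tested hemidesmosome partners did not pass the test. Of 13 tetraspanins and other associated membrane proteins, 4 rose and 5 fell, with Cav1 higher (246 RPKM in the clones and 37.4 in Py2T LT) and Cd81 lower (35.2 RPKM in the clones and 126 in Py2T LT). Of 7 genes of latent TGF-beta, 3 rose and 3 fell. Of 16 other integrin subunits, 5 were abundant enough to test, and 2 rose and 2 fell. In the mean of the clones, the risers were Itgb5 and Itgb8, both alphav partners, and the fallers were Itga7 and Itgb2. Itgb5 averaged 58.9 RPKM in the clones and 41.5 in Py2T LT (log2 change 0.45 ± 0.11, limma, adjusted p = 0.00543). By clone it passed in M1 (0.80 ± 0.13, adjusted p = 0.000864) and not in M2 (0.25 ± 0.13, adjusted p = 0.138) or M3 (0.31 ± 0.13, adjusted p = 0.0692). Itgb8 averaged 1.68 RPKM in the clones and 0.616 in Py2T LT (log2 change 0.86 ± 0.25, adjusted p = 0.0144). It passed in M2 and M3 but not in M1 (0.24 ± 0.30, adjusted p = 0.518). With a mean under 1 RPKM in Py2T LT, Itgb8 could pass the filter only with the help of clone libraries, so its values describe that difference. Itga7 averaged 7.47 RPKM for M1, 0.222 for M2 and 5.86 for M3, against 4.9 RPKM in Py2T LT. Its log2 change was -0.71 ± 0.13 over the clones (adjusted p = 0.00119), 0.53 ± 0.16 in M1 (adjusted p = 0.0176), -2.91 ± 0.16 in M2 (adjusted p = 1.16e-06) and 0.24 ± 0.16 in M3 (adjusted p = 0.218), so the clones did not move together. Itgb2, the leukocyte beta chain, averaged 2.14 RPKM in the clones and 8.42 in Py2T LT (log2 change -1.83 ± 0.10, adjusted p = 8.75e-07).

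In clone M3, Itga8 was far lower and Itgb6 higher with either shRNA than with shControl, while Itgb3 was higher with shMbd3 alone among the untreated groups. These 3 genes spanned the largest ranges of the set over the 6 groups, 5.90, 4.32 and 3.45 on the log2 scale for Itga8, Itgb3 and Itgb6, against at most 1.70 for the other 7. Tests on these libraries used limma on log2(CPM + 0.5), with adjustment over 12808 genes. After Tet2 knockdown, 2 of the 10 integrins rose, 1 fell and 7 did not pass, where 23.4% of all genes passed (10.5% higher, 12.9% lower). After Mbd3 knockdown, 3 rose, 2 fell and 5 did not pass, where 32.2% of all genes passed (15.3% higher, 16.9% lower). Without the library labelled shControl replicate 1, only 1 untreated shControl library remains, and values of single genes in that setting are given below. The number of integrins passing then moved for shTet2 and not for shMbd3. It was not set against the share of all genes passing, so the move is not shown to be particular to integrins. Itgb6 reached the 0.5 CPM needed for testing in the knockdown cells and in neither untreated shControl library, so it had to be higher in the knockdowns once tested.

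Itga8 was at 1.56 and 1.89 CPM in shTet2 cells and 0.543 and 0.803 CPM in shMbd3 cells, against 36.2 and 30.2 CPM in shControl cells. The 3 groups did not overlap, and shMbd3 cells were lowest. The log2 change was -3.90 ± 0.19 for shTet2 (limma, adjusted p = 2.88e-06) and -4.89 ± 0.19 for shMbd3 (adjusted p = 1.14e-06). In reads, 71 in shTet2 and 31 in shMbd3 stood against 1420 in shControl, which gives levels 19.3-fold lower (95% interval 15.2 to 24.9, counting error only) and 49.7-fold lower (34.9 to 73.5). With the library labelled shControl replicate 1 left out, the log2 changes were -3.72 and -4.71. That library held the least Mbd3 of the 12, at 5.4 CPM, with the most Itga8, at 36.2 CPM, and the least Itgb6, at 0.0915 CPM. The Itgb6 value rests on 2 reads, where 3 reads amount to 0.137 CPM. It is also the library that lost signal from GC-rich transcripts, and a relation between these values was not tested. Among cell state markers, Cdh1 was at 202 and 207 CPM in shTet2 cells and 170 and 202 CPM in shMbd3 cells, against 16.3 and 25.7 CPM in shControl cells. Vim was at 322 and 351 CPM in shTet2 cells and 396 and 409 CPM in shMbd3 cells, against 1461 and 1525 CPM in shControl cells. The summed level of the mammary epithelial markers was 4918 and 5462 CPM in shTet2 cells and 3401 and 3514 CPM in shMbd3 cells. In shControl cells it was 1348 and 3495 CPM, so the shMbd3 libraries lay on both sides of replicate 2. The mesenchymal sum was 2928 and 3045 CPM with shTet2 and 2755 and 3055 CPM with shMbd3, against 4157 and 5954 CPM with shControl. The part of these shifts in the integrin results was not tested.

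Itgb6 was at 2.17 and 1.49 CPM in shTet2 cells and 4.34 and 3.21 CPM in shMbd3 cells, against 0.0915 and 0.24 CPM in shControl cells. In reads, 76 in shTet2 cells and 176 in shMbd3 cells stood against 7 in shControl cells. The groups did not overlap, and the log2 change was 1.85 ± 0.25 for shTet2 (limma, adjusted p = 0.000944) and 2.65 ± 0.25 for shMbd3 (adjusted p = 0.000129). Scaled to library size, levels were 11.2-fold higher in shTet2 cells (95% interval 5.2 to 28.9, counting error only) and 23.2-fold higher in shMbd3 cells (11 to 58.5). When the library labelled shControl replicate 1 was left out, the log2 changes were 1.70 and 2.50, and without the filter on low values they were 1.85 (adjusted p = 0.0122) and 2.65 (adjusted p = 0.00314).

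Itgb3 was at 13.1 and 14.9 CPM in shMbd3 cells, against 1.28 and 1.72 CPM in shControl cells, while shTet2 cells had 1.09 and 1.99 CPM. The shMbd3 cells stood clear of the other groups, and the shTet2 and shControl libraries overlapped. The log2 change for shMbd3 was 2.81 ± 0.23 (limma, adjusted p = 6.7e-05), and 2.69 without the library labelled shControl replicate 1. The difference between the knockdowns was itself tested, and shTet2 over shMbd3 gave -2.79 ± 0.23 (adjusted p = 0.000107).

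Itgav, the alpha chain of both beta3 and beta6, was at 224 and 206 CPM in shMbd3 cells, against 353 and 299 CPM in shControl cells. It fell by 0.66 ± 0.15 on the log2 scale (limma, adjusted p = 0.0129), while both its beta partners rose in the same cells. After removal of the GC trend the value was -0.27 and no longer passed (adjusted p = 0.058), and without the library labelled shControl replicate 1 it was -0.48 (adjusted p = 0.0171). The call was lost in 5 of 23 alternative settings.

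**Figure D3:**
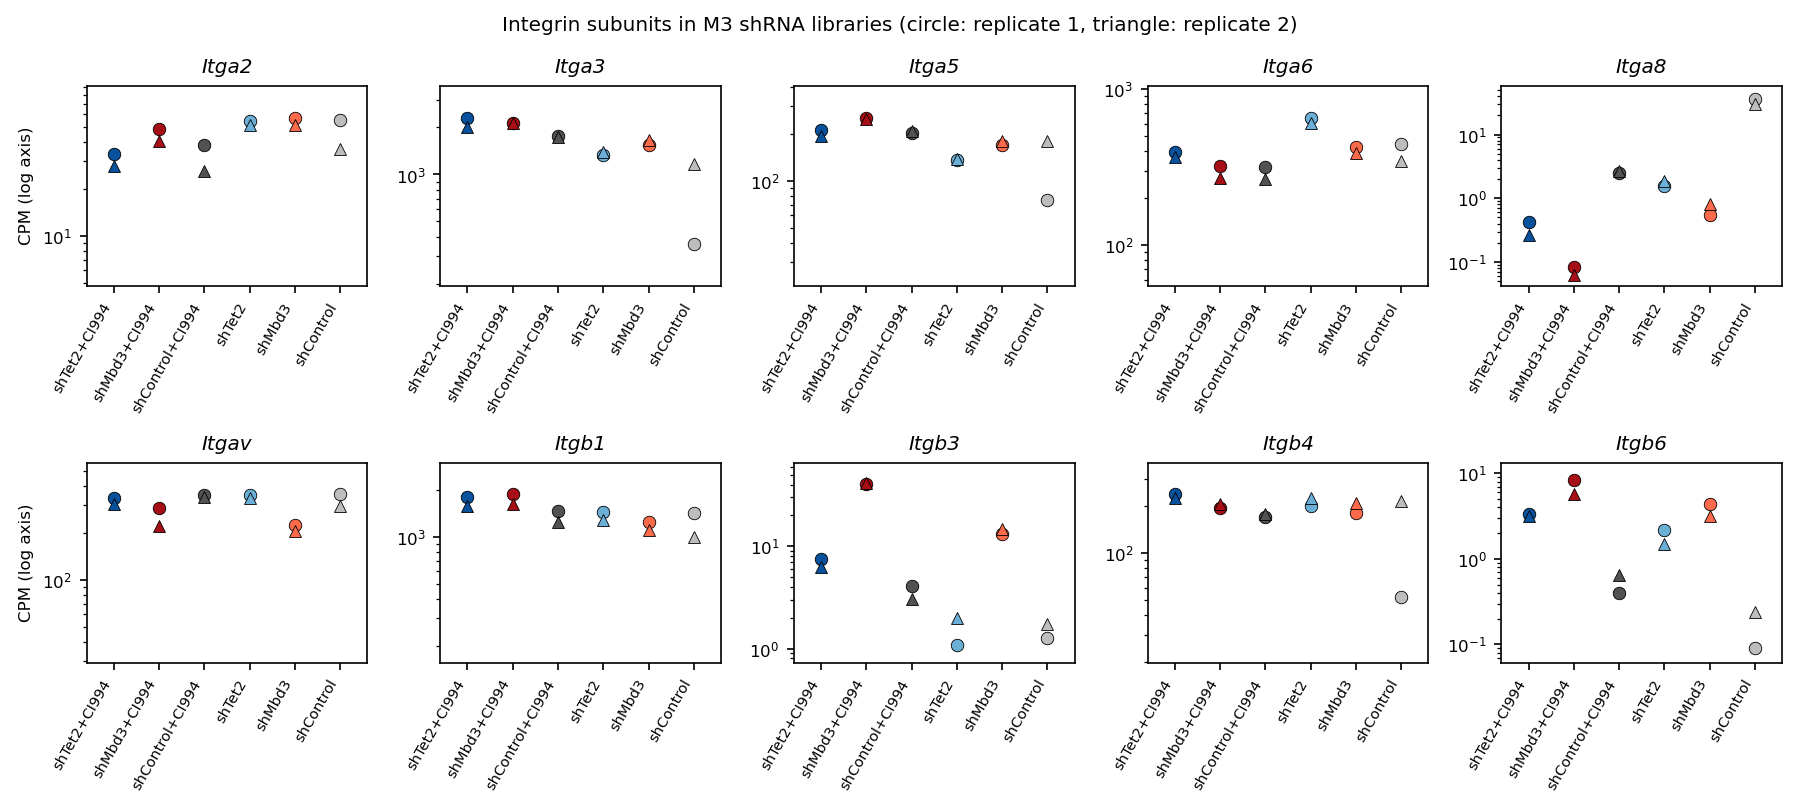
CPM of the 10 integrin subunits (y axes, log scale, each panel on its own range) in clone M3 with shTet2, shMbd3 or shControl, first the 3 groups treated with CI994 and then the 3 untreated groups; circles are replicate 1 and triangles replicate 2. Itga8 runs from 36.2 CPM in untreated shControl cells down to 0.0622 CPM in shMbd3 cells with CI994, Itgb3 and Itgb6 are highest in shMbd3 cells with CI994, and the low shControl circle of Itga3, Itga5 and Itgb4 is replicate 1.

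Among the laminin receptor chains, Itga6 rose after Tet2 knockdown. It was at 655 and 610 CPM in shTet2 cells, against 447 and 347 CPM in shControl cells, with no overlap. The log2 change was 0.71 ± 0.17 (limma, adjusted p = 0.0176), and 0.95 without the library labelled shControl replicate 1, and the call was lost in 4 of 23 alternative settings. In shMbd3 cells Itga6 was at 426 and 390 CPM, and shTet2 over shMbd3 gave 0.72 ± 0.17 (adjusted p = 0.0187), a call lost in 5 of 23 alternative settings.

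Itga3 depended on the shControl library used. It was at 1327 and 1383 CPM in shTet2 cells and 1544 and 1668 CPM in shMbd3 cells, against 356 and 1172 CPM in shControl cells. Both knockdowns lay above both shControl libraries, and shControl replicate 2 was far closer to them than replicate 1. The log2 change was 1.25 ± 0.39 for shMbd3 (limma, adjusted p = 0.0363) and 1.10 ± 0.39 for shTet2, which did not pass (adjusted p = 0.0686). Without the library labelled shControl replicate 1 they were 0.45 (adjusted p = 0.00259) and 0.30 (adjusted p = 0.0226), and the shMbd3 call was lost in 13 of 23 alternative settings.

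Itgb4 was at 200 and 227 CPM in shTet2 cells and 180 and 211 CPM in shMbd3 cells, against 52.6 and 216 CPM in shControl cells. Its log2 change of 1.03 ± 0.46 in shTet2 cells did not pass (limma, adjusted p = 0.134), nor did 0.80 ± 0.46 in shMbd3 cells (adjusted p = 0.194). With the library labelled shControl replicate 1 left out, they were 0.07 (adjusted p = 0.617) and -0.15 (adjusted p = 0.274), so the direction in shMbd3 cells turned. Itga5 was at 135 and 137 CPM in shTet2 cells and 169 and 180 CPM in shMbd3 cells, against 75.2 and 179 CPM in shControl cells. Its log2 changes of 0.26 ± 0.28 in shTet2 cells (adjusted p = 0.516) and 0.52 ± 0.28 in shMbd3 cells (adjusted p = 0.167) did not pass. When the library labelled shControl replicate 1 was left out, both directions turned, to -0.31 in shTet2 cells, which then passed (adjusted p = 0.0127), and -0.04 in shMbd3 cells (adjusted p = 0.737).

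Itga2 and Itgb1 did not pass either, at 51 to 56.9 CPM for Itga2 in the knockdowns, against 36.1 to 55 CPM in shControl cells. Itgb1 was at 1102 to 1437 CPM in the knockdowns, against 998 to 1420 CPM in shControl cells. Without the library labelled shControl replicate 1, the log2 changes of Itga2 were 0.63 in shTet2 cells (limma, adjusted p = 0.0375) and 0.57 in shMbd3 cells (adjusted p = 0.0517), against 0.27 ± 0.25 and 0.21 ± 0.25 with it. Those of Itgb1 were 0.53 in shTet2 cells (adjusted p = 0.0124) and 0.23 in shMbd3 cells (adjusted p = 0.228), against 0.22 ± 0.20 and -0.09 ± 0.20 with it.

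CI994 lowered Itga8 and raised Itgb3 in all 3 backgrounds. In shTet2 cells, 1 integrin rose and 3 fell, where 24.3% of all genes passed (12.6% higher, 11.7% lower). In shMbd3 cells 1 rose and 1 fell (12.7%, with 7.58% higher and 5.11% lower), and in shControl cells 2 rose and 1 fell (33.6%, with 17.9% higher and 15.7% lower). Itgb3 was at 7.44 and 6.3 CPM in shTet2 cells with CI994, against 1.09 and 1.99 CPM untreated. It was at 40.7 and 41.2 CPM in shMbd3 cells with CI994, against 13.1 and 14.9 CPM untreated, and at 4.08 and 3.02 CPM in shControl cells with CI994, against 1.28 and 1.72 CPM untreated. Treated and untreated libraries did not overlap in any background. The log2 changes were 1.83 ± 0.23 in shTet2 cells (limma, adjusted p = 0.00102), 1.51 ± 0.23 in shMbd3 cells (adjusted p = 0.00427) and 0.99 ± 0.23 in shControl cells (adjusted p = 0.0149, lost in 3 of 23 alternative settings). With the library labelled shControl replicate 1 left out, the last value was 0.87 (adjusted p = 0.027).

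Itga8 was at 0.423 and 0.268 CPM in shTet2 cells with CI994, against 1.56 and 1.89 CPM untreated. In shMbd3 cells with CI994 only 2 reads and 1 read were counted (0.0841 and 0.0622 CPM), against 0.543 and 0.803 CPM untreated. In shControl cells it was at 2.48 and 2.67 CPM with CI994, against 36.2 and 30.2 CPM untreated. Each treated pair lay below its untreated pair. The log2 change was -1.45 ± 0.19 in shTet2 cells (limma, adjusted p = 0.00121), -1.01 ± 0.19 in shMbd3 cells (adjusted p = 0.0106, lost in 3 of 23 alternative settings) and -3.48 ± 0.19 in shControl cells (adjusted p = 2.68e-05), the last -3.30 without the library labelled shControl replicate 1. Scaled to library size, the ratio of treated to untreated reads was 0.202 in shTet2 cells (95% interval 0.11 to 0.351), 0.113 in shMbd3 cells (0.022 to 0.361) and 0.0771 in shControl cells (0.0632 to 0.0933), counting error only. The intervals for shMbd3 and shControl cells overlap.

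Itga6 and Itga2 fell with CI994 in shTet2 cells. Itga6 was at 398 and 370 CPM with CI994, against 655 and 610 CPM untreated (log2 change -0.79 ± 0.17, limma, adjusted p = 0.0123), a call lost in 5 of 23 alternative settings. Itga2 was at 33.6 and 28.1 CPM with CI994, against 54.3 and 51 CPM untreated (log2 change -0.84 ± 0.25, adjusted p = 0.0413), a call lost in 9 of 23 alternative settings. In the other backgrounds neither passed: Itga6 had log2 changes of -0.48 ± 0.17 in shMbd3 cells (adjusted p = 0.109) and -0.46 ± 0.17 in shControl cells (adjusted p = 0.063), and Itga2 had -0.30 ± 0.25 (adjusted p = 0.484) and -0.53 ± 0.25 (adjusted p = 0.121). When the library labelled shControl replicate 1 was left out, Itga6 gave -0.22 and Itga2 -0.17 in shControl cells, neither of which passed (adjusted p = 0.234 and 0.568), and Itga6 passed in shMbd3 cells (adjusted p = 0.00586). The difference between backgrounds did not pass for either gene.

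Itga3 was higher with CI994 in shControl cells, at 1755 and 1737 CPM, against 356 and 1172 CPM untreated (log2 change 1.40 ± 0.39, limma, adjusted p = 0.0249), and the value was 0.60 without the library labelled shControl replicate 1. The call was lost in 4 of 23 alternative settings. In the knockdowns its log2 changes of 0.60 ± 0.39 in shTet2 cells (adjusted p = 0.267) and 0.41 ± 0.39 in shMbd3 cells (adjusted p = 0.536) did not pass, and both passed without that library (adjusted p = 5.99e-05 and 0.00126). For Itga5, the log2 changes of 0.50 ± 0.28 in shTet2 cells (adjusted p = 0.206), 0.52 ± 0.28 in shMbd3 cells (adjusted p = 0.26) and 0.79 ± 0.28 in shControl cells (adjusted p = 0.0531) did not pass. All 3 passed without that library (adjusted p = 0.000104, 0.00016 and 0.0479), where the change in shControl cells was 0.23. Itga5 was at 212 and 193 CPM in shTet2 cells with CI994, against 135 and 137 CPM untreated, and at 253 and 249 CPM in shMbd3 cells with CI994, against 169 and 180 CPM untreated. In shControl cells it was at 202 and 209 CPM with CI994, against 75.2 and 179 CPM untreated.

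Itgb1 was at 1871 and 1622 CPM in shMbd3 cells with CI994, against 1244 and 1102 CPM untreated. The log2 change of 0.57 ± 0.20 did not pass (limma, adjusted p = 0.0972), but it passed in 7 of 23 alternative settings. Itgb6 had log2 changes of 0.65 ± 0.25 in shTet2 cells (adjusted p = 0.086), 0.80 ± 0.25 in shMbd3 cells (adjusted p = 0.0689) and 0.62 ± 0.25 in shControl cells (adjusted p = 0.0792), none of which passed. Without the library labelled shControl replicate 1 the last was 0.47 (adjusted p = 0.249), and those in shTet2 and shMbd3 cells passed (adjusted p = 0.0347 and 0.02). In each background both treated libraries were above both untreated ones. The summed level of 4 basal and myoepithelial markers was higher with CI994 alongside Itgb3: it was 71.8 and 53.1 CPM in shTet2 cells, against 4.86 and 5.73 untreated, 108 and 78.2 CPM in shMbd3 cells, against 23.2 and 17.5 untreated, and 32.5 and 26 CPM in shControl cells, against 3.25 and 5.84 untreated. Krt14 carried nearly all of it, and Krt5, Trp63 and Acta2, the other 3 markers, were at no more than 2.01 CPM in any library. Acta2 went the other way, at 0.0845 and 0.0894 CPM in shTet2 cells with CI994, against 0.472 and 0.199 CPM untreated, at 0 in both shMbd3 libraries with CI994, against 0.417 and 0.446 CPM untreated, and at 0.2 and 0 CPM in shControl cells with CI994, against 2.01 and 1.72 CPM untreated. In this respect the markers did not move as one, and the part of such cells in the result was not tested.

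Within CI994-treated cells, Itga8 was again lowest and Itgb3 and Itgb6 highest after Mbd3 knockdown, with Tet2 knockdown between it and shControl for all 3 genes. In shTet2 cells 2 integrins rose and 1 fell against shControl (16.0% of all genes passed, 6.69% higher and 9.28% lower), and in shMbd3 cells likewise 2 rose and 1 fell (19.1%, 8.11% higher and 11.0% lower). Itga8 fell in both, with log2 changes of -1.87 ± 0.19 for shTet2 (limma, adjusted p = 0.000229) and -2.42 ± 0.19 for shMbd3 (adjusted p = 4.51e-05). Itgb6 was at 3.38 and 3.17 CPM in shTet2 cells and 8.37 and 5.72 CPM in shMbd3 cells, against 0.4 and 0.654 CPM in shControl cells. The groups did not overlap, and the log2 changes were 1.88 ± 0.25 (adjusted p = 0.00101) and 2.83 ± 0.25 (adjusted p = 9.06e-05). The shControl libraries with CI994 did not both reach the 0.5 CPM needed for testing. Itgb6 thus passed the filter through the knockdown cells, where it is high, and these values describe that difference.

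Itgb3 rose by 3.33 ± 0.23 in shMbd3 cells with CI994 (limma, adjusted p = 2.94e-05) and by 0.87 ± 0.23 in shTet2 cells with CI994 (adjusted p = 0.0357), both on the log2 scale against shControl cells with CI994. The shTet2 call was lost in 10 of 23 alternative settings. In shMbd3 cells Itgav was at 287 and 222 CPM with CI994, against 352 and 337 CPM in shControl cells with CI994. Its log2 change of -0.48 ± 0.15 did not pass (adjusted p = 0.0581), but it passed in 9 of 23 alternative settings.

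Set directly against each other without CI994, 3 integrins were higher and 1 was lower in shTet2 than in shMbd3 cells (19.2% of all genes passed, 9.55% higher and 9.60% lower). The higher ones were Itga6, Itga8 with a log2 change of 0.99 ± 0.19 (limma, adjusted p = 0.00707) and Itgav with 0.76 ± 0.15 (adjusted p = 0.00876), calls lost in 2 and 3 of 23 alternative settings. The lower one was Itgb3. Itgb6 was also lower in shTet2 cells by its values, but its log2 change of -0.80 ± 0.25 did not pass (adjusted p = 0.0539). It did pass in 8 of 23 alternative settings. With CI994, 2 were lower in shTet2 than in shMbd3 cells and 8 did not pass (21.9% of all genes passed, 11.1% higher and 10.8% lower): Itgb3 at -2.47 ± 0.23 (adjusted p = 0.000179) and Itgb6 at -0.95 ± 0.25 (adjusted p = 0.0257, lost in 5 of 23 alternative settings). Itga8 gave 0.56 ± 0.19 there (adjusted p = 0.0694), and passed in 6 of 22 alternative settings. The counts of both contrasts moved when either untreated shControl library, which is in neither contrast, was left out.

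Whether CI994 acted differently in the knockdowns was tested as an interaction. Itga8 was the single one of the 10 genes that passed, in both tests, where 0.687% of all genes passed for Tet2 (0.414% higher, 0.273% lower) and 0.0781% for Mbd3 (0.0390% in each direction). The interaction was 2.03 ± 0.27 on the log2 scale for Tet2 (limma, adjusted p = 0.0211) and 2.47 ± 0.27 for Mbd3 (adjusted p = 0.0288), so the fall with CI994 was smaller after knockdown on the log2(CPM + 0.5) scale. With the library labelled shControl replicate 1 left out, the values were 1.84 (adjusted p = 0.00831) and 2.28 (adjusted p = 0.0107). Neither passed on the recovered reads, where edgeR's quasi-likelihood test gave 1.37 (adjusted p = 0.255) and 0.66 (adjusted p = 0.784). In shMbd3 cells the gene had 3 reads with CI994 and 31 untreated.

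**Figure D4:**
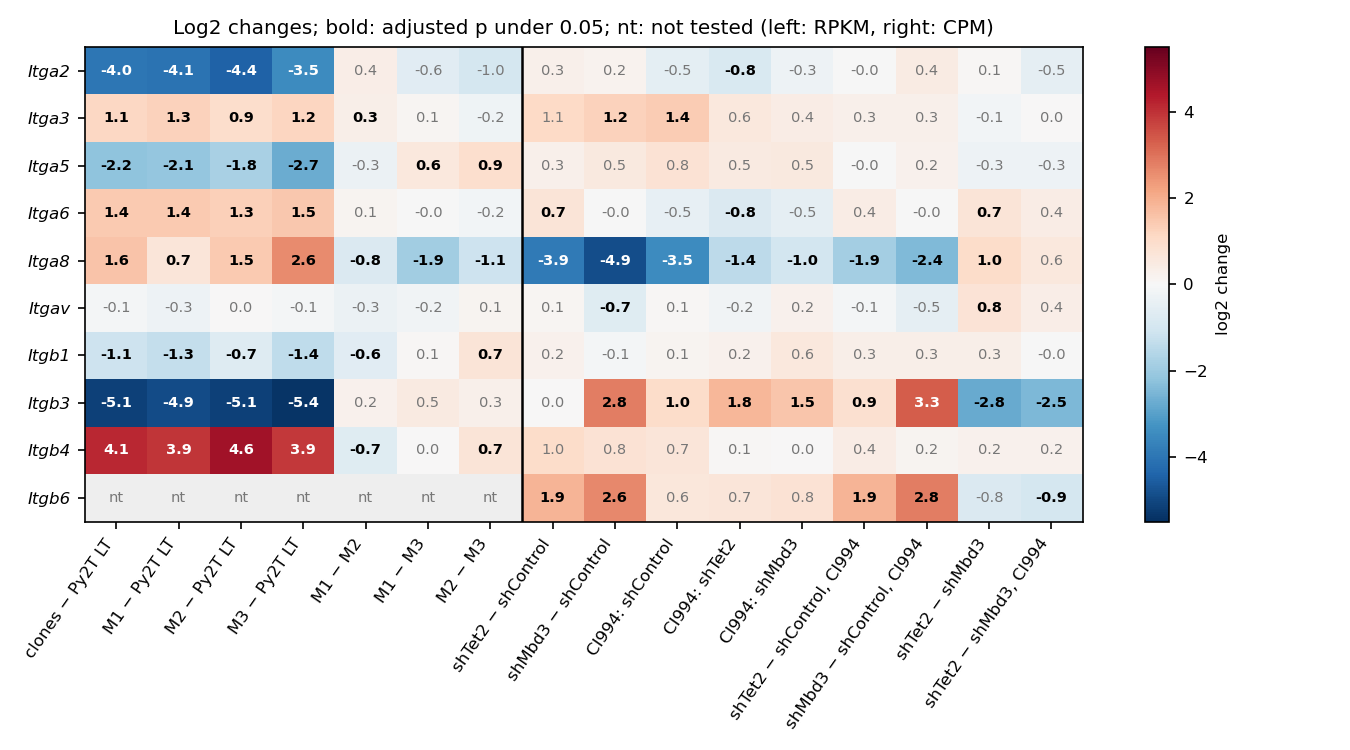
Log2 changes of the 10 integrin subunits (rows) in 7 comparisons of RPKM libraries (left of the line) and 9 of CPM libraries (right), coloured from blue (lower in the group named first, or with CI994) to red (higher), with values that passed the test in bold and nt for not tested. Itgb3 is at -5.14 for the clones and at 2.81 and 3.33 for shMbd3 cells, and Itga8 is at 1.57 for the clones and is negative in all 7 comparisons of a knockdown with shControl or of CI994 with untreated cells.

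Integrins outside the set moved as well in the M3 libraries, where 9 of 16 were abundant enough to test. After each knockdown 4 fell and 5 did not pass, where 12.9% of all genes fell for shTet2 and 16.9% for shMbd3. Itgb8, the other beta chain that activates latent TGF-beta with alphav, averaged 0.961 CPM in shTet2 cells and 1.04 CPM in shMbd3 cells, against 6.41 CPM in shControl cells, with log2 changes of -2.27 ± 0.22 (limma, adjusted p = 0.000139) and -2.22 ± 0.22 (adjusted p = 0.000151). When the library labelled shControl replicate 1 was left out, these were -2.21 and -2.17, and 4 and 3 of the list fell. Itgb6 and Itgb8 thus lay on opposite sides of shControl in both knockdowns. Itgb5 rose with CI994 in all 3 backgrounds, by 1.37 ± 0.19 in shTet2 cells (adjusted p = 0.00154), 0.75 ± 0.19 in shMbd3 cells (adjusted p = 0.0335) and 1.04 ± 0.19 in shControl cells (adjusted p = 0.00556) on the log2 scale, the last 0.71 without the library labelled shControl replicate 1 (adjusted p = 0.00107). Itgb8 averaged 2.58 CPM in shTet2 cells with CI994 and 0.961 CPM untreated, and 2.11 CPM in shControl cells with CI994 and 6.41 CPM untreated. This difference in response gave an interaction of 2.51 ± 0.31 on the log2 scale (adjusted p = 0.0175), and the interaction for shMbd3 was 1.84 ± 0.31 (adjusted p = 0.0687). Itga4 and Itga11 were at 0 in all 12 libraries, where 3 reads amount to 0.12 to 0.186 CPM.

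Ligands were measured in the same libraries. Against shControl cells, 23.4% of all genes passed in shTet2 cells and 32.2% in shMbd3 cells. Among cells with CI994 these shares were 16.0% and 19.1%. Of 11 tested laminin and collagen chains, 4 rose and 1 fell in shTet2 cells and 6 rose and 1 fell in shMbd3 cells, with median log2 changes of 0.93 and 1.26 against 0.02 and 0.00 over all genes. Without the library labelled shControl replicate 1 the medians were 0.28 and 0.38. Against shControl cells with CI994, 1 was higher and 1 lower in shTet2 cells with CI994 (median 0.04), and 3 were higher and 1 lower in shMbd3 cells with CI994 (median 0.65). The laminin beta3 chain (Lamb3) averaged 132 CPM in shTet2 cells and 148 CPM in shMbd3 cells, against 32.3 CPM in shControl cells. Its log2 changes were 2.20 and 2.28 with the library labelled shControl replicate 1, and 1.56 and 1.64 without it. Of 10 tested RGD ligands, 3 rose and 2 fell in shTet2 cells and 5 rose and 2 fell in shMbd3 cells. Their medians were 0.15 and 0.72, and -0.09 and 0.40 without the library labelled shControl replicate 1. Tenascin-C averaged 706 CPM in shTet2 cells and 659 CPM in shMbd3 cells, against 60.9 CPM in shControl cells. Nephronectin averaged 15.5 CPM in shTet2 cells and 46.5 CPM in shMbd3 cells, against 51.9 CPM in shControl cells. The log2 change in shTet2 cells was -1.68 ± 0.16 (limma, adjusted p = 0.000142), and -1.47 without that library. The shMbd3 cells, which had the least Itga8, thus held more nephronectin than shTet2 cells, and shTet2 over shMbd3 gave -1.46 ± 0.16 (adjusted p = 0.000415).

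Nephronectin also fell with CI994 in all 3 backgrounds, by 1.24 ± 0.16 in shTet2 cells (limma, adjusted p = 0.00118), 0.90 ± 0.16 in shMbd3 cells (adjusted p = 0.0086) and 1.22 ± 0.16 in shControl cells (adjusted p = 0.00134) on the log2 scale, and the log2 change in shControl cells was -1.01 without the library labelled shControl replicate 1. With CI994, 24.3% of all genes passed in shTet2 cells, 12.7% in shMbd3 cells and 33.6% in shControl cells. Laminin and collagen chains counted 4 higher and 2 lower in shTet2 cells, 3 higher in shMbd3 cells and 7 higher in shControl cells. RGD ligands counted 5 higher and 1 lower in shTet2 cells, 4 higher and 1 lower in shMbd3 cells, and 6 higher and 2 lower in shControl cells. In shControl cells the median log2 change of laminin and collagen chains was 1.32, and 0.55 without that library. For RGD ligands it was 0.85, and 0.58 without that library. Fibronectin (Fn1), the ligand of alpha5 beta1, averaged 7441 CPM in shTet2 cells with CI994 and 2279 CPM untreated (log2 change 1.63 ± 0.19, adjusted p = 0.000689).

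Against shControl, 23.4% of all genes passed in shTet2 cells and 32.2% in shMbd3 cells. Of 28 tested adaptors and kinases, 3 rose and 1 fell in shTet2 cells and 7 rose and 2 fell in shMbd3 cells. Their median log2 changes were 0.25 and 0.14, and 0.11 and -0.02 without the library labelled shControl replicate 1. Numbers passing without that library are not given, since the share of all genes passing there is not set beside them. Kindlin-1 (Fermt1), which activates beta chains, averaged 92.4 CPM in shTet2 cells, against 37.1 CPM in shControl cells. Alpha-parvin (Parva), which links integrins to actin, averaged 136 CPM in shMbd3 cells, against 332 CPM in shControl cells. With CI994, 3 adaptors and kinases rose and 1 fell in shTet2 cells, 2 rose and 1 fell in shMbd3 cells, and 10 rose and 1 fell in shControl cells. In these contrasts 24.3%, 12.7% and 33.6% of all genes passed. Of 4 hemidesmosome partners, 1 fell in shTet2 cells and 2 fell in shMbd3 cells against shControl. The median log2 changes were 0.09 and 0.06, and -0.41 and -0.43 without that library. Of 13 associated membrane proteins, 4 rose in shTet2 cells and 2 fell in shMbd3 cells. Medians were 0.37 and 0.30, and 0.04 and 0.03 without that library. Of 7 genes of latent TGF-beta, 1 rose in shTet2 cells, and 1 rose and 1 fell in shMbd3 cells. Medians were 0.08 and -0.29, and -0.15 and -0.29 without that library. Tgfb1 itself averaged 15.5 CPM in shMbd3 cells, against 7.83 CPM in shControl cells (log2 change 0.96 ± 0.27, limma, adjusted p = 0.0275), and it no longer passed without that library (0.52, adjusted p = 0.0624).

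Across the 12 M3 libraries, which share the 6 groups, Itga8 and Itgb6 ran opposite to each other, with a Pearson correlation of -0.91 on log2 values. Itgb3 and Itgb6 correlated at 0.81, and Itga8 and Itgb3 at -0.74. Itga3 correlated with Itga5 at 0.92 and with Itgb4 at 0.87, and these 3 genes share low values in the library labelled shControl replicate 1. Among genes averaging at least 5 CPM, those most like Itga8 were Psd3 (0.96), Soat1 (0.96) and Gbp2 (0.95). Those most like Itgb3 were Syt13 (0.99), Fam234b (0.97) and Ppp1r13b (0.97), and those most like Itgb6 were Fat1 (0.98), Sorbs2 (0.97) and Ret (0.97). Ret, a receptor tyrosine kinase, averaged 162 CPM in shMbd3 cells with CI994 and 2.03 CPM in untreated shControl cells.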

How the data were processed

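RNA was measured in 20 libraries, 2 for each of 10 groups. Per the labels' protocols, total RNA was made into libraries with the TruSeq Stranded Total RNA kit; the submitters' processing notes name STAR and mm10, and the counting step, its use of strand and the annotation are not given in the sources used here. The authors deposited RPKM values for 8 libraries; whether they count reads or fragments, and their depth, is not known. The authors deposited CPM values for the other 12, where 100% of values were whole reads within 0.01 reads, giving 16086082 to 24977595 reads per library and a level of 0.12 to 0.186 CPM for 3 reads. The 2 tables were normalised separately, so no test crosses them.

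Values were divided by TMM factors (edgeR 4.0.16), and a gene was kept if 2 libraries reached 1 RPKM or 0.5 CPM, which left 11717 and 12808 genes. They were tested with limma 3.58.1 in R 4.3.3 on log2(value + 0.5), with 1 fit per table over all its groups, trended and robust variance, and Benjamini-Hochberg adjustment at 0.05. Fold changes on this scale understate the change of low genes. Rows were NCBI Gene numbers, of which 99.7% in each table had a symbol. Alternatives were DESeq2 size factors, library size alone, no filter, pseudocounts of 0.1 and 1, a replicate block, only the groups compared, removal of the GC trend with and without the block, each library left out, and, for CPM, edgeR and DESeq2 1.42.0 on recovered reads. Intervals of read ratios are exact and cover counting error only. GC content came from the longest annotated transcript, available for 94.4% and 95.6% of tested genes. With 2 libraries a group, p-values measure the spread between these experiments only.

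The members, gene lists and tests were chosen with earlier results of these data known. Leaving the library labelled shControl replicate 1 out of the gene lists was chosen after seeing the data. Every member was tested where its level allowed. In the lists of ligands, adaptors and partners, up to 2 genes per direction were named in each comparison, those with the largest change past the threshold and a mean of at least 1, and other integrin subunits were named by list. The 3 genes most correlated with each of the 3 members of widest range, over 12 libraries and at a mean of at least 5 CPM, were named too.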

Additional observations from a re-analysis of the deposited data

Results flagged for a closer look

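The response of Itga8 to CI994 differed between backgrounds by a test of the difference itself. The interaction was 2.03 ± 0.27 (SE) on the log2 scale for shTet2 against shControl cells (limma, adjusted p = 0.0211) and 2.47 ± 0.27 for shMbd3 against shControl cells (adjusted p = 0.0288). Itga8 fell with CI994 in all 3 backgrounds and in both libraries of each. With a pseudocount of 0.1 the values were 1.55 (adjusted p = 0.148) and 1.54 (adjusted p = 0.278), and DESeq2 on recovered reads gave 1.37 (adjusted p = 0.269) and 0.59 (adjusted p = 0.808). The call was lost in 10 of 23 alternative settings for Tet2 and in 14 of 23 for Mbd3. The shMbd3 cells with CI994 held 3 reads of this gene in all.

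The response of Itgb8 to CI994 also differed between backgrounds, with an interaction of 2.51 ± 0.31 (SE) on the log2 scale for shTet2 against shControl cells (limma, adjusted p = 0.0175) and 2.46 without the library labelled shControl replicate 1 (adjusted p = 0.00521). Itgb8 rose by 1.06 ± 0.22 with CI994 in shTet2 cells (adjusted p = 0.00914), and its log2 change was -1.44 ± 0.22 in shControl cells (adjusted p = 0.00238). It was noticed after the values were seen.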

How the results depend on the processing

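Over 18 comparisons, integrins passed the test 73 times, and 51 of these calls held in every alternative fitted. The other 22 were lost in at least 1 alternative, and none of the 73 reversed. Of 27 reported values that did not pass, 25 passed in at least 1 alternative, so not passing is not firm. Among values that did not pass, Itga5 turned after Tet2 and Mbd3 knockdown with the GC trend removed (-0.12 and -0.02, and the same with a replicate block) and without the library labelled shControl replicate 1 (lowest values -0.31 and -0.04, highest without another library 0.82 and 1.08). Itgb1 after Mbd3 knockdown turned with the GC trend removed (0.22, and 0.22 with a replicate block). Over libraries left out in turn, Itgb1 ran from -0.40 to 0.23 after Mbd3 and -0.09 to 0.53 after Tet2 knockdown, Itga2 from -0.15 to 0.57 and -0.09 to 0.63, and Itgb4 after Mbd3 knockdown from -0.15 to 1.76. The causes were not tested. Main counts of integrins called were 3 for shTet2, 5 for shMbd3, 3 and 3 for the same with CI994, 4 and 2 for shTet2 against shMbd3 without and with CI994, 3, 4 and 2 for CI994 in shControl, shTet2 and shMbd3 cells, and 4, 2 and 4 for M1 against M2, M1 against M3 and M2 against M3. Without the filter, counts were 3 for shMbd3, 1 and 2 for CI994 in shControl and shTet2 cells, 2 and 1 for shTet2 against shMbd3 without and with CI994, and 1 and 1 for M1 against M2 and M3.

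Fitting only the groups compared gave 3 for shMbd3, 7 and 7 for shTet2 and shMbd3 with CI994, 7 and 7 for shTet2 against shMbd3, 8, 7 and 1 for CI994 in shTet2, shMbd3 and shControl cells, and 2 and 1 for M1 against M2 and M3. Removing the GC trend gave 8 for shTet2, 5 and 6 for shTet2 and shMbd3 with CI994, 7 for shTet2 against shMbd3 with CI994, and 6 and 7 for CI994 in shMbd3 and shControl cells, and with a replicate block as well these were 7, 5, 6, 7, 7 and 7. DESeq2 on recovered reads gave 5 for CI994 in shControl cells. The causes of these shifts were not tested. Except for the interactions, the number of all genes passing in each setting is not set beside these counts, here or in the paragraphs before and after. The counts therefore do not show whether integrins moved apart from other genes.

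The replicate numbers were not treated as pairs, since the labels do not state that they pair samples. Deviations of same-numbered libraries correlated at 0.0958 to 0.524 (median 0.36) over 15 pairs of CPM groups. Over 6 pairs of RPKM groups they correlated at -0.123 to 0.128. In every CPM group Itga2, Itga6, Itgav and Itgb1 were higher in replicate 1 than in replicate 2. The log2 differences were 0.10 to 0.72, 0.11 to 0.48, 0.08 to 0.37 and 0.17 to 0.63, so these genes carried a shared replicate shift. With the replicate block, counts were 6 and 4 for CI994 in shControl and shMbd3 cells and 4 for shTet2 against shMbd3 with CI994, and it moved no other count by over 1.5 times.

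For the interactions, where Itga8 was the 1 integrin called, the count was 0 with a pseudocount of 0.1, with only the groups compared, with edgeR and with DESeq2. Over all genes, edgeR called 38 for Tet2 and 0 for Mbd3, DESeq2 called 267 and 119, and a pseudocount of 0.1 gave 56 and 0.

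Leaving out 1 library gave 7 to 8 integrins for the clones against Py2T LT, 6 to 9 for M1, 7 to 8 for M2 and 7 to 8 for M3. Between clones it gave 0 to 5 for M1 against M2, 1 to 3 for M1 against M3 and 3 to 5 for M2 against M3. It gave 2 to 7 for shTet2, 3 to 8 for shMbd3, 2 to 7 and 3 to 7 for the same with CI994, 2 to 8 and 1 to 8 for shTet2 against shMbd3, 2 to 7, 1 to 7 and 1 to 8 for CI994 in shTet2, shMbd3 and shControl cells, and 0 to 4 and 0 to 5 for the interactions with Tet2 and Mbd3. Without the library labelled shControl replicate 1 alone, counts were 7 for shTet2, 5 for shMbd3, 7 and 7 with CI994, 8 and 8 for shTet2 against shMbd3, and 7, 7 and 5 for CI994. Counts moved by over 1.5 times without either M2 library for M1 against M2 (0 and 2), without either M3 library for M1 against M3 (1 and 1), and, among other libraries, without either shControl library for the counts on knockdown and CI994, except shMbd3 without CI994, which kept 5 without replicate 1. A lone library left in a group is assumed to vary like the other groups. Itgb3 fell below the filter when a Py2T LT library was left out and then has no value.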
